A study of Homo sapiens with 18 samples.

Results

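Interferon-stimulated genes are the genes that a cell switches on when interferon binds its receptors. The group described here holds 49 of them, chosen by gene symbol from a list of well-known members, and all 49 were found among the 57445 genes of the count table. They were measured by RNA sequencing in the established human cell line MiaPaCa-2, derived from a pancreatic carcinoma, which was injected into the sciatic nerve to model perineural invasion, the growth of tumour along nerves. The 18 libraries fell into 6 groups of 3. Leaders are the cells collected from the front of the nerve. Part of each harvest was expanded in vitro and put back into nerves, over 4 passages, which gave leaders of passages 1, 2, 3 and 4. Laggers are the cells left behind at passage 1. The parental line was never injected and was kept in vitro. All 6 groups are labelled with the same genotype, WT, and all come from the 1 cell line. The sources used here do not give the host species, the origin of the replicates of a group or whether RNA was taken at harvest or after regrowth, so p-values measure the spread between these libraries, which may be technical.

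Interferons of type I and type III signal through the kinases JAK1 and TYK2 to a complex that holds STAT2 and IRF9 and binds a DNA element called the interferon-stimulated response element (ISRE). Interferon gamma, the type II interferon, signals through JAK1 and JAK2 to genes that carry a gamma-activated site (GAS). The products of these genes detect foreign nucleic acid, degrade or block viral RNA, hold virus particles at membranes, modify proteins with the ubiquitin-like protein ISG15, and amplify the signal itself. In many cancers part of this programme is active without infection.

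The 250 bases before the transcription start are shown for 6 members that stood out in level or in change below, read from RefSeq on GRCh38.p14, 5′ to 3′ on the strand of the gene. Capitals mark matches to the ISRE core (GAAA, any 2 bases, GAAA) on either strand in the first 5 sequences and the match to the GAS core TTCNNNGAA in the last one.
ISG15, chr1:1013247-1013496, strand plus: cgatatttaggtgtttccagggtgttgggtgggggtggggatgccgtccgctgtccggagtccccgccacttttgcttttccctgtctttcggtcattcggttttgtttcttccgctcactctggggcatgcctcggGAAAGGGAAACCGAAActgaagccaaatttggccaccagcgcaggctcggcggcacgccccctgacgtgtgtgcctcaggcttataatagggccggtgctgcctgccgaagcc
BST2, chr19:17405631-17405880, strand minus: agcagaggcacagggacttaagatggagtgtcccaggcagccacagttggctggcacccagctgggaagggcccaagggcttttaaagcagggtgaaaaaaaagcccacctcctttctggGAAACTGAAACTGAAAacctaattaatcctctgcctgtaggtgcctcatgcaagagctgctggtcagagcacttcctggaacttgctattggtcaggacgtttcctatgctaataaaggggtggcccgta
IFI6, chr1:27672193-27672442, strand minus: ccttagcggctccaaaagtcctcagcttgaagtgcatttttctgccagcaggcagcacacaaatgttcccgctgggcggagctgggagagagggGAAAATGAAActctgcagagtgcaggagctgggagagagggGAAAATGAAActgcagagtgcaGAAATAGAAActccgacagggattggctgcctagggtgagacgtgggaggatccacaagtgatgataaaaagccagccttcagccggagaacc
IFI27, chr14:94110486-94110735, strand plus: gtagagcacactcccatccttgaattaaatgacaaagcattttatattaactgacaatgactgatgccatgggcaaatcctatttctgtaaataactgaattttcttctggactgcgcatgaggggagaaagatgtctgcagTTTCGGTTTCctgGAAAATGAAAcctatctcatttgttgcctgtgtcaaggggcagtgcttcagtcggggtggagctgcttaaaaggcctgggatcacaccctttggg
GBP1, chr1:89065209-89065458, strand minus: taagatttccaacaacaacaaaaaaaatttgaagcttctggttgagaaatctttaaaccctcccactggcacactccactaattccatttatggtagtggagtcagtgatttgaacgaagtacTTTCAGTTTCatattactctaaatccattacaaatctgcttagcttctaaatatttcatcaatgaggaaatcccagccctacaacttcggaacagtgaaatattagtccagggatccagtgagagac
IRF1, chr5:132490774-132491023, strand minus: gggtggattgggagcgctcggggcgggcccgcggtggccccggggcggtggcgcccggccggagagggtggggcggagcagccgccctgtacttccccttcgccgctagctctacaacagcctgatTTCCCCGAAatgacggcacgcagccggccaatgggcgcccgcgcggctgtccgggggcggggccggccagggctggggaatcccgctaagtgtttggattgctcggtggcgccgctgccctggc
The ISG15 and BST2 upstream regions each held a pair of overlapping ISRE matches, whose first bases lay at positions -113 and -107 for ISG15 and -130 and -124 for BST2, counted from the start. IFI6 held 3 matches, IFI27 held 2 on opposite strands, and GBP1 held 1. IRF1 had no ISRE match and 1 GAS match. BST2 and IFI27 also held GAS matches, the first at -136 and -101, which are not marked above. IFI27 had 2 annotated starts, and the 1 shown was picked as the first with an ISRE match. Windows from 250 bases before to 50 after a start were available for 39 of the 49 members. A gene counted as holding a core when any of its windows did, for members and for all genes alike. The ISRE core was present for 27 of these (69.2%), against 1195 of 27305 genes with a window (4.38%). The GAS core was present for 13 of the 39 (33.3%), against 2560 of 27305 genes (9.38%). A match is a description of letters and not evidence of binding.

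The counts are raw reads per gene, and levels are given as CPM, the count divided by the library total and scaled to a common size, with a factor for library composition. Gene totals ran from 15113462 to 39373248 counts. The groups differed in library make-up: mitochondrial genes took 1.95% to 8.57% of gene counts in recovered cells (leaders and laggers) and 0.472% to 0.873% in parental cells, and reads with several alignments made up 20.2% to 32.6% of all entries in leaders and laggers and 13.9% to 16.4% in the parental line. Markers of leukocytes, cells with strong interferon responses of their own, summed over 18 genes to 1.75 to 11.7 CPM in the recovered libraries and 2.09 to 2.81 CPM in the parental libraries, with 9 to 11 of the 18 at 0 counts in each group. PTPRC, the pan-leukocyte marker CD45, was at 0 in the laggers and the parental line and at most 4.86 CPM in leaders. Markers of fibroblasts summed over 10 genes to 235 to 2314 CPM in the leaders of 4 passages, 1274 to 2155 CPM in laggers and 122 to 255 CPM in the parental line, with COL1A2 and COL3A1 carrying most of the difference, COL1A1 and PDGFRB going the other way (group means of 6.61 to 48.6 and 0.0477 to 0.308 CPM in recovered cells, against 160 and 0.885 CPM in the parental line), at most 1 of the 10 at 0 counts in a recovered group and THY1 and FAP at 0 in the parental line. In bulk libraries a change in the number of cells that express a gene and a change in RNA per cell cannot be told apart, and the part of library make-up and of fibroblast marker genes in the results below was not tested.

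Of the 49 members, 46 passed the filter on low counts and were tested, while IRF7, IFI44L and EPSTI1 were not. In parental cells 31 members lay above the filter level in every library, and 11 of the tested ones lay under it in all 3. Summed over the 49 members, the level was 1709, 1759 and 1693 CPM in passage 1 leaders, 1859, 2363 and 1923 CPM in passage 2 leaders, 1425, 2212 and 1633 CPM in passage 3 leaders, 1470, 1273 and 1439 CPM in passage 4 leaders, 3155, 1993 and 2413 CPM in laggers, and 1128, 955 and 1093 CPM in the parental line. Every recovered library lay above every parental library in this sum, and lagger replicate 1 was the highest of the 18. Per kilobase of exon, the members with the highest levels were IFI6, IFITM3 and BST2 in passage 1 leaders (158, 139 and 127 CPM per kb), ISG15, BST2 and IFITM3 in laggers (210, 194 and 178 CPM per kb) and IFITM1, ISG15 and WARS in the parental line (66.8, 59.1 and 45.7 CPM per kb). The number of members under 1 CPM was 9 to 13 in leader libraries, 6 to 9 in lagger libraries and 17 to 19 in parental libraries.

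**Figure D1:**
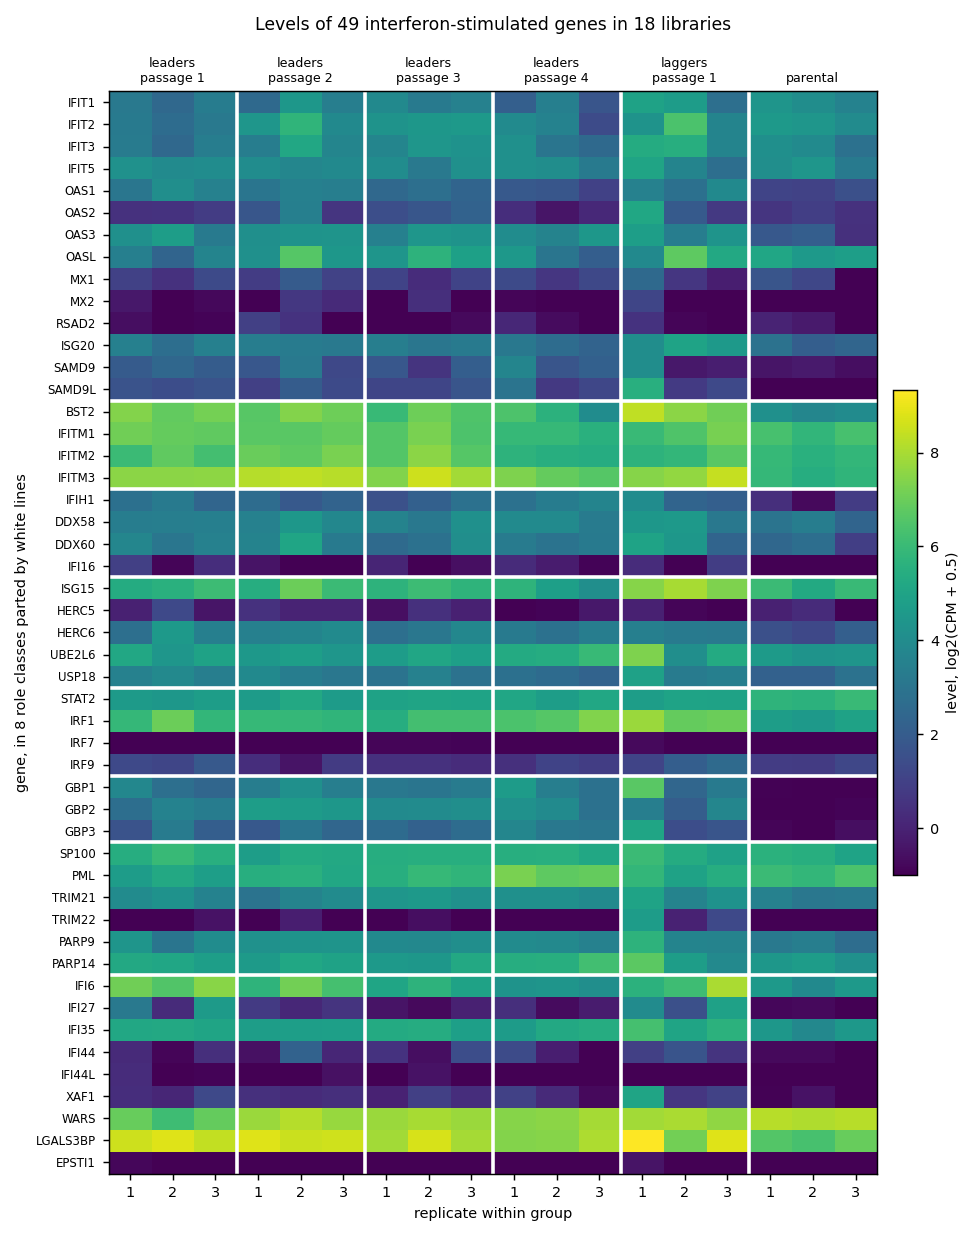
Level of each of the 49 genes in each of the 18 libraries, as log2(CPM + 0.5) on the colour scale, with genes as rows in 8 role classes and libraries as columns in 6 groups of 3. The GBP1, GBP2 and GBP3 rows are dark in the 3 parental columns at the right and lighter in all 15 recovered columns, and several rows such as SAMD9L, TRIM22 and XAF1 are lightest in lagger replicate 1.

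Against the parental line, members were higher far more often than lower in each recovered group (edgeR quasi-likelihood test, called at an adjusted p under 0.05 over all 16187 genes tested). Passage 1 leaders had 21 of 46 members higher (45.7%) and 3 lower, where 23.2% of all tested genes were higher and 22.4% lower. Passage 2 leaders had 19 higher (41.3%) and 2 lower, against 15.1% and 14.8% of all genes. Passage 3 leaders had 15 higher (32.6%) and 1 lower, against 13.8% and 10.8%. Passage 4 leaders had 13 higher (28.3%) and 1 lower, against 14.8% and 12.9%. Laggers had 29 higher (63.0%) and 2 lower, against 21.5% and 17.8% of all genes. The median log2 fold change of the tested members was 0.99, 1.23, 1.04 and 0.84 in leaders of passages 1 to 4 and 1.82 in laggers, where the median over all tested genes was 0.07, 0.00, 0.01, 0.03 and 0.09. With members at 0 parental counts set at their lower bound the medians were the same, except for 0.92 at passage 3, where TRIM22 was left out. The 5 comparisons share the 3 parental libraries.

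A member that passed the filter only through the recovered groups had to be higher there, so the 31 members above the filter level in all parental libraries were also counted alone. Of these, 12, 11, 10 and 7 were higher in leaders of passages 1 to 4 (38.7%, 35.5%, 32.3% and 22.6%) and 18 in laggers (58.1%). Among all 12868 genes above that level in all parental libraries, 18.4%, 11.8%, 10.4% and 12.3% were higher in leaders of passages 1 to 4 and 16.7% in laggers. Of the 31 members, 3, 2, 1 and 1 were lower in leaders of passages 1 to 4 and 2 in laggers, where 28.1%, 18.3%, 13.4% and 15.9% of those genes were lower in leaders and 22.3% in laggers. Over the 5 comparisons, 10 members were higher in every one: OAS3, SAMD9L, BST2, IFITM3, IFIH1, HERC6, IRF1, GBP1, GBP2 and GBP3, where 7.32% of all tested genes were. SAMD9L, GBP1, GBP2 and GBP3 lay under the filter level in all parental libraries, so their calls follow in part from the filter, and IFIH1 lay under it in 1. The other 5 were above it in all 3, where 5.65% of all genes above it were higher in every comparison. STAT2 was lower in every one, where 5.96% of all tested genes were. Of the 46 members tested, 14 were higher in none, STAT2 among them, and the same count over all genes was not made.

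**Figure D2:**
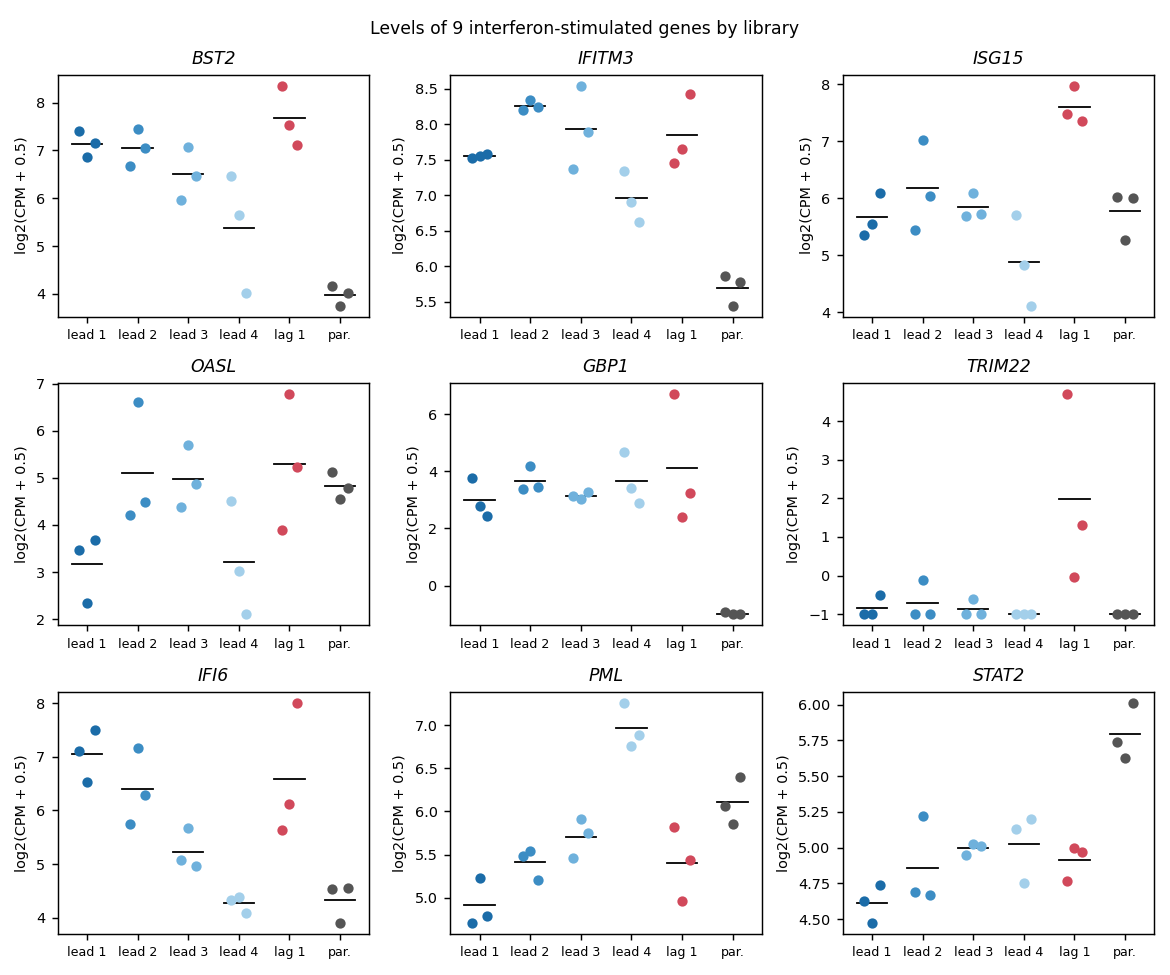
Level of 9 members as log2(CPM + 0.5), 1 point per library and a line at the mean of each group of 3, for leaders of passages 1 to 4 (lead 1 to lead 4), passage 1 laggers (lag 1) and the parental line (par.). All recovered libraries lie above the parental ones for IFITM3 and GBP1 and below them for STAT2, TRIM22 is high in lagger replicate 1, and IFI6 and PML differ between passages 4 and 1.

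Of the 4 membrane proteins that block virus entry or release, 3 were higher in leaders of passages 1, 2 and 3 and 2 in passage 4 leaders and in laggers. IFITM3, which stops viruses from fusing with endosomes, was at 184, 187 and 191 CPM in passage 1 leaders, 292, 322 and 301 CPM in passage 2 leaders, 165, 372 and 237 CPM in passage 3 leaders, 162, 119 and 97.8 CPM in passage 4 leaders, 174, 200 and 343 CPM in laggers, and 57.8, 43.1 and 54.4 CPM in the parental line. No recovered library reached down to the parental range. It rose in all 5 comparisons, most at passage 2, by 2.56 ± 0.30 (SE) on the log2 scale (edgeR adjusted p = 1.78e-05), and least at passage 4 (1.29 ± 0.29, edgeR adjusted p = 0.00372). BST2, or tetherin, which ties budding virus to the cell surface, was at 168, 115 and 143 CPM in passage 1 leaders, 101, 173 and 133 CPM in passage 2 leaders, 61.9, 134 and 88.4 CPM in passage 3 leaders, 87.8, 50 and 15.8 CPM in passage 4 leaders, 328, 186 and 138 CPM in laggers, and 17.5, 13.0 and 15.6 CPM in the parental line. Replicate 3 of the passage 4 leaders lay within the parental range and all other recovered libraries above it. BST2 rose by 3.21 ± 0.50 (log2, SE) in passage 1 leaders (edgeR adjusted p = 0.000103) and by 3.82 ± 0.51 in laggers (edgeR adjusted p = 4.1e-05). At passage 4 the change over the parental line was 1.74 ± 0.47 (edgeR adjusted p = 0.0121), and 1.10 without passage 4 replicate 1 (edgeR adjusted p = 0.0955).

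IFITM1 and IFITM2, plasma membrane and endosomal relatives of IFITM3, moved less. IFITM1 averaged 123 ± 11.7, 107 ± 8.76, 111 ± 36.1 and 55.6 ± 7.58 CPM in leaders of passages 1 to 4, 101 ± 43.1 CPM in laggers and 72.2 ± 13.9 CPM in the parental line (SD, n = 3 each). Only passage 1 leaders passed the test against the parental line (0.77 ± 0.27, edgeR adjusted p = 0.0299), and not without leader replicate 1 or without parental replicate 1 or 2 (edgeR adjusted p = 0.0893, 0.0599 and 0.129). IFITM2 rose at passages 2 and 3 (1.24 ± 0.30 and 1.21 ± 0.30, edgeR adjusted p = 0.00632 and 0.00896). The annotated IFITM1 and IFITM2 genes overlap on the same strand of chromosome 11 and the family members are close in sequence, so how counts divide among them is uncertain.

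The antiviral effectors split into members that rose and members that did not. OAS1, a synthetase whose product activates RNA decay by RNase L, was at 7.80, 16.9 and 11.2 CPM in passage 1 leaders, 7.69, 10.9 and 10.2 CPM in passage 2 leaders, 5.20, 6.35 and 4.53 CPM in passage 3 leaders, 3.17, 2.91 and 1.49 CPM in passage 4 leaders, 11.1, 6.52 and 14.4 CPM in laggers, and 1.69, 1.53 and 2.37 CPM in the parental line. The leaders of passages 1 to 3 and the laggers lay clear of the parental range, and passage 4 overlapped it. OAS1 rose by 2.68 ± 0.38 in passage 1 leaders (edgeR adjusted p = 5.42e-05) and by 2.52 ± 0.38 in laggers (edgeR adjusted p = 0.000121). At passage 4 the difference from the parental line was 0.44 ± 0.37 (edgeR adjusted p = 0.41). Its neighbour OAS3, a longer synthetase of the same family, rose in every recovered group by 2.66 to 2.88 on the log2 scale. OAS1, OAS2 and OAS3 lie together on chromosome 12, from 112906777 to 113011723 on GRCh38.

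OASL, an OAS relative without synthetase activity that aids the RNA sensor RIG-I, showed no such rise. It was at 10.6, 4.60 and 12.3 CPM in passage 1 leaders, 17.9, 97.1 and 21.9 CPM in passage 2 leaders, 20.4, 51.3 and 28.6 CPM in passage 3 leaders, 22.2, 7.62 and 3.80 CPM in passage 4 leaders, 14.4, 109 and 37.3 CPM in laggers, and 34.4, 22.8 and 27.0 CPM in the parental line. All passage 1 and passage 4 leader libraries lay below all parental ones, and 1 library each of passages 2 and 3 and 2 lagger libraries lay above them. None of its comparisons with the parental line passed, with log2 fold changes of -1.61 ± 0.77 in passage 1 leaders (edgeR adjusted p = 0.0966) and 0.93 ± 0.75 in laggers (edgeR adjusted p = 0.337). The IFIT genes IFIT1, IFIT2, IFIT3 and IFIT5, which encode binders of viral RNA and lie together on chromosome 10, were called in no comparison by edgeR's quasi-likelihood test with the filter on low counts, with parental means of 12.9 to 19.9 CPM. MX1, a GTPase that traps viral particles, was called in none by that test either, with group means of 1.32 to 2.24 CPM.

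ISG20, an exonuclease that degrades viral RNA, was at 10.9, 6.14 and 10.8 CPM in passage 1 leaders, 16.5, 31.2 and 23.7 CPM in laggers, and 7.02, 3.78 and 4.70 CPM in the parental line. The laggers lay above both other groups, while passage 1 leaders overlapped the parental line. ISG20 rose by 2.20 ± 0.33 in laggers (edgeR adjusted p = 9.88e-05). Its rise of 0.85 ± 0.32 in passage 1 leaders (edgeR adjusted p = 0.0377) did not pass without leader replicate 1 or 3 or parental replicate 2 or 3 (edgeR adjusted p = 0.107 to 0.137). SAMD9L, an antiviral gene next to SAMD9 on chromosome 7, had 0 parental counts and at least 1.12 CPM in every recovered library. Set against 3 counts over the parental group, it was at least 89.3-fold, 80.7-fold, 78.8-fold and 115-fold higher in leaders of passages 1 to 4 (52.9-fold at passage 4 without replicate 1) and at least 642-fold higher in laggers, or 53.5-fold in laggers without replicate 1. Of the other effectors, SAMD9 was higher in leaders of passages 1, 2 and 4 and in laggers, OAS2 in laggers, and MX2 and RSAD2 in none, at 1.75 CPM or less in every library. SAMD9 lay under the filter level in every parental library, so its calls follow in part from the filter. It was at 16.1, 0.287 and 0.42 CPM in laggers and 0.249, 0.332 and 0.148 CPM in the parental line.

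The 4 sensors of foreign nucleic acid were all higher in laggers, and 1 of them in every recovered group. IFIH1, which encodes the double-stranded RNA sensor MDA5, was at 6.55, 9.10 and 4.65 CPM in passage 1 leaders, 5.87, 3.23 and 4.39 CPM in passage 2 leaders, 2.49, 4.05 and 6.81 CPM in passage 3 leaders, 6.79, 9.62 and 12.3 CPM in passage 4 leaders, 16, 4.60 and 3.92 CPM in laggers, and 0.821, 0.102 and 1.29 CPM in the parental line. All recovered libraries lay above the parental ones. IFIH1 rose by 3.21 ± 0.70 in passage 1 leaders, 3.71 ± 0.71 in passage 4 leaders and 3.49 ± 0.71 in laggers (edgeR adjusted p = 0.00157, 0.0013 and 0.00119), and by 2.53 in laggers without replicate 1. Without parental replicate 3, its highest parental library, the 3 values were 3.85, 4.35 and 4.13. DDX58, which encodes the RNA sensor RIG-I, was at 10.0, 10.2 and 10.5 CPM in passage 1 leaders, 21.8, 23.6 and 8.26 CPM in laggers, and 7.36, 10.0 and 4.55 CPM in the parental line. Its rise of 1.29 ± 0.40 in laggers (edgeR adjusted p = 0.0179) did not pass without lagger replicate 1 or 2 or parental replicate 1 or 3 (edgeR adjusted p = 0.0562 to 0.0801). DDX60, a helicase that promotes RIG-I signalling, rose in passage 2 leaders (2.10 ± 0.67, edgeR adjusted p = 0.0272) and in laggers (2.20 ± 0.67, edgeR adjusted p = 0.0166). The first was 1.29 without passage 2 replicate 2 and did not pass (edgeR adjusted p = 0.174), nor without parental replicate 1 or 3 (0.0604 and 0.108), and the second did not pass without lagger replicate 1 or parental replicate 3 (edgeR adjusted p = 0.0765 and 0.0641). IFI16, a DNA sensor, had 0 parental counts and was at least 29.3-fold higher in passage 1 leaders (16-fold without replicate 1) and 22-fold in laggers (13.5-fold without replicate 3), at 1.44 CPM or less in every library. As it lay under the filter level in every parental library, these folds are a description. Lagger replicate 2 had 0 counts, like the parental line, and passage 1 leader replicate 2 had 1.

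Of the 5 members of the ISG15 system, 4 were higher in laggers, and HERC5 was not called. ISG15 was at 40.7, 46.3 and 67.6 CPM in passage 1 leaders, 43.3, 130 and 65.8 CPM in passage 2 leaders, 51.4, 68.1 and 52.4 CPM in passage 3 leaders, 51.7, 27.8 and 16.8 CPM in passage 4 leaders, 177, 252 and 163 CPM in laggers, and 65.0, 38.3 and 63.7 CPM in the parental line. The 3 laggers were the 3 highest of the 18 libraries, and every leader group overlapped the parental range. ISG15 rose in laggers (1.83 ± 0.41, edgeR adjusted p = 0.00256, and 1.89 without lagger replicate 1) and passed in no leader group, with log2 fold changes of -0.79 to 0.52. HERC6, of the family of ligases that attach ISG15, was at 6.37, 23.0 and 10.5 CPM in passage 1 leaders, 10.4, 9.20 and 8.47 CPM in laggers, and 2.39, 1.84 and 3.85 CPM in the parental line. Neither recovered group overlapped the parental range. It rose in all 5 comparisons, by 2.31 ± 0.42 in passage 1 leaders (edgeR adjusted p = 0.000424, and 1.72 without leader replicate 2) and 1.81 ± 0.42 in laggers (edgeR adjusted p = 0.00316). USP18, which removes ISG15 and blocks the type I receptor, rose in leaders of passages 1 and 2 and in laggers. UBE2L6, the conjugating enzyme, rose in laggers (1.76 ± 0.53, edgeR adjusted p = 0.0159), but was 0.33 without lagger replicate 1, with an adjusted p of 0.438. HERC5, the main human ISG15 ligase, was called in none, at 1.93 CPM or less in every library.

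Among the transcription factors, IRF1 was higher and STAT2 lower in every recovered group. IRF1, a factor that interferon gamma induces, was at 58.8, 130 and 57.0 CPM in passage 1 leaders, 59.4, 58.9 and 53.4 CPM in passage 2 leaders, 43.1, 74.6 and 75.5 CPM in passage 3 leaders, 83.4, 95.9 and 166 CPM in passage 4 leaders, 218, 117 and 127 CPM in laggers, and 26.6, 23.0 and 30.4 CPM in the parental line. No recovered library overlapped the parental range. IRF1 rose by 1.62 ± 0.35 in passage 1 leaders, 2.11 ± 0.36 in passage 4 leaders and 2.53 ± 0.36 in laggers (edgeR adjusted p = 0.00155, 0.000498 and 7.74e-05). Its rise of 1.10 ± 0.35 at passage 2 (edgeR adjusted p = 0.0257) did not pass when any 1 of the 6 compared libraries was left out (edgeR adjusted p = 0.0507 to 0.072), nor its rise of 1.27 ± 0.35 at passage 3 (edgeR adjusted p = 0.0146) without passage 3 replicate 3 (0.0525). STAT2, the type I subunit of the ISRE-binding complex, was at 24.2, 21.7 and 26.2 CPM in passage 1 leaders, 25.3, 36.8 and 24.9 CPM in passage 2 leaders, 30.4, 32.0 and 31.8 CPM in passage 3 leaders, 34.6, 26.5 and 36.2 CPM in passage 4 leaders, 26.6, 31.5 and 30.9 CPM in laggers, and 52.9, 49 and 64.1 CPM in the parental line. Every recovered library lay below every parental one. It fell by 1.2 on the log2 scale in passage 1 leaders (SE 0.19, edgeR adjusted p = 0.000151), by 0.77 in passage 4 leaders (SE 0.19, edgeR adjusted p = 0.00764) and by 0.90 in laggers (SE 0.19, edgeR adjusted p = 0.00183). IRF9, the DNA-binding partner of STAT2, was called in none with all libraries, with group means of 0.738 to 3.63 CPM, and rose in laggers without replicate 1 (1.63, edgeR adjusted p = 0.0216). IRF7, the amplifier of type I interferon production, had 5 counts in all over the 18 libraries.

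The guanylate-binding proteins, GTPases that attack vacuoles of pathogens, were present in every recovered library and had at most 6 counts over the 3 libraries of the parental line. GBP1 was at 13.1, 6.33 and 4.86 CPM in passage 1 leaders, 9.88, 17.7 and 10.4 CPM in passage 2 leaders, 8.19, 7.57 and 9.25 CPM in passage 3 leaders, 25.1, 10.2 and 6.84 CPM in passage 4 leaders, 103, 4.79 and 9.03 CPM in laggers, and 0.0249, 0 and 0 CPM in the parental line, where it had 1 count. GBP2 was at 6.15, 11.3 and 9.59 CPM in passage 1 leaders, 26.3, 25.2 and 22 CPM in passage 2 leaders, 14.9, 15.6 and 16.8 CPM in passage 3 leaders, 18.1, 14.8 and 6.74 CPM in passage 4 leaders, 10.2, 3.64 and 13.0 CPM in laggers, and 0, 0 and 0.037 CPM in the parental line, also with 1 count. The lowest recovered library lay far above the parental ones for both genes. The ratio of GBP2 to the parental line was 933 in passage 1 leaders (95% counting interval 167 to 36929), 2582 in passage 2 leaders (463 to 102032) and 901 in laggers (161 to 35667). The ratio of GBP1 was 895 in passage 1 leaders (160 to 35400), where it was 588 without leader replicate 1, 1407 in passage 4 leaders (252 to 55626) and 4564 in laggers (818 to 180351), where it was 693 without replicate 1 (123 to 27495). GBP3, with 6 parental counts, was 87.1 times higher in passage 1 leaders (56 without leader replicate 2), 167 times in passage 4 leaders and 249 times in laggers, or 43.9 times in laggers without replicate 1. Without passage 4 replicate 1, the ratio of GBP1 at passage 4 was 888. All 3 genes lay under the filter level in every parental library and passed it through the recovered groups, so the ratios are a description. These intervals cover counting error only, and leaving out the 1 parental library that held the count leaves no counts to divide by. GBP1, GBP2 and GBP3 lie together on chromosome 1, from 89006666 to 89150456 on GRCh38, and as close relatives can share reads.

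Among nuclear body, TRIM and PARP genes no pattern was shared by the whole class. PML, which organises nuclear bodies that repress incoming viral genomes, was at 25.7, 37.2 and 27.2 CPM in passage 1 leaders, 44.3, 46.3 and 36.3 CPM in passage 2 leaders, 43.7, 59.7 and 53.1 CPM in passage 3 leaders, 153, 108 and 117 CPM in passage 4 leaders, 56.2, 30.7 and 42.7 CPM in laggers, and 66.4, 57.2 and 83.9 CPM in the parental line. Passage 4 lay above the parental range, and passages 1 and 2 and the laggers below it. PML fell by 1.2 on the log2 scale in passage 1 leaders (SE 0.24, edgeR adjusted p = 0.000816). It was lower in passage 2 leaders (-0.71 ± 0.24, edgeR adjusted p = 0.0339) and laggers (-0.68 ± 0.24, edgeR adjusted p = 0.0328) and higher at passage 4 (0.87 ± 0.24, edgeR adjusted p = 0.0132). Each of these 3 calls was lost when any 1 of several libraries was left out, while the direction stayed. The first did not pass without parental replicate 1 or 3 or any 1 of the 3 passage 2 libraries (edgeR adjusted p = 0.0534 to 0.147). The second did not pass without parental replicate 1 or 3 or lagger replicate 2 or 3 (0.0513 to 0.146), and the third without parental replicate 1 or 2 or passage 4 replicate 1 (0.0515 to 0.0695). SP100, the partner of PML in those bodies, was called in none, with group means of 34.6 to 49.9 CPM.

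TRIM22, a ubiquitin ligase with antiviral activity, was at 0, 0 and 0.208 CPM in passage 1 leaders, 25.5, 0.479 and 1.96 CPM in laggers, and 0 in all parental libraries. All other leader libraries were at 0.422 CPM or less. It was at least 363-fold higher in laggers (set against 3 counts over the parental group), or 38.3-fold without lagger replicate 1, a description only, since it passed the filter through the laggers alone. The annotated gene overlaps TRIM5 on the opposite strand, and the library kit does not mark strand. TRIM21, an antibody receptor in the cytosol, rose at passage 3 (1.16 ± 0.33, edgeR adjusted p = 0.0174) and in laggers (1.16 ± 0.33, edgeR adjusted p = 0.0109), and in laggers not without replicate 1 (0.68, edgeR adjusted p = 0.0888). PARP9, a cofactor of interferon signalling that overlaps DTX3L, rose in laggers with replicate 1 included (1.61, edgeR adjusted p = 0.013) and not without it (0.51, edgeR adjusted p = 0.242), and PARP14 was called in none.

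Of the remaining members, LGALS3BP, a secreted glycoprotein, was at 375, 456 and 337 CPM in passage 1 leaders, 454, 361 and 387 CPM in passage 2 leaders, 240, 423 and 248 CPM in passage 3 leaders, 171, 176 and 270 CPM in passage 4 leaders, 646, 141 and 461 CPM in laggers, and 95.5, 80.9 and 121 CPM in the parental line. Every recovered library lay above the parental range. It rose by 1.98 ± 0.40 in passage 1 leaders (edgeR adjusted p = 0.000857) and 2.07 ± 0.40 in laggers (edgeR adjusted p = 0.000801), while passage 4 just missed the threshold (1.05 ± 0.39, edgeR adjusted p = 0.0532). WARS, the tryptophan tRNA synthetase that interferon gamma induces, went the other way in passage 1 leaders. It was at 121, 70.2 and 118 CPM in passage 1 leaders, 221, 295 and 213 CPM in passage 2 leaders, 219, 256 and 217 CPM in passage 3 leaders, 176, 186 and 246 CPM in passage 4 leaders, 239, 261 and 197 CPM in laggers, and 298, 278 and 295 CPM in the parental line. WARS fell by 1.49 on the log2 scale in passage 1 leaders (SE 0.21, edgeR adjusted p = 5.25e-05), in which the highest library lay below all libraries of the other groups.

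IFI6, a mitochondrial and endoplasmic reticulum protein that resists flaviviruses, was at 137, 91.5 and 181 CPM in passage 1 leaders, 53.0, 142 and 77.3 CPM in passage 2 leaders, 33.1, 50.3 and 30.7 CPM in passage 3 leaders, 19.6, 20.4 and 16.6 CPM in passage 4 leaders, 49.2, 69.2 and 257 CPM in laggers, and 22.7, 14.5 and 23.0 CPM in the parental line. The mean was lower at each later passage, and the passage 4 libraries lay within the parental range. IFI6 rose by 2.77 ± 0.52 in passage 1 leaders (edgeR adjusted p = 0.000533), 2.18 ± 0.51 in passage 2 leaders (edgeR adjusted p = 0.00486) and 2.64 ± 0.52 in laggers (edgeR adjusted p = 0.000968), or 1.61 in laggers without replicate 3. IFI27, a mitochondrial protein and a sensitive marker of type I interferon, was at 8.61, 0.693 and 24.1 CPM in passage 1 leaders, 1.19, 0.609 and 0.959 CPM in passage 2 leaders, 0.221, 0.107 and 0.463 CPM in passage 3 leaders, 0.804, 0.125 and 0.363 CPM in passage 4 leaders, 15.4, 2.35 and 29.4 CPM in laggers, and 0.0746, 0.102 and 0 CPM in the parental line. The replicates of both passage 1 groups ranged widely, and all lay above the parental line. From counts, IFI27 was 176 times higher in passage 1 leaders (79.6 without replicate 3) and 215 times in laggers (136 without replicate 3). As it lay under the filter level in every parental library, these are a description. IFI35 rose in leaders of passages 1, 3 and 4 and in laggers by 0.85 to 1.47, IFI44 in passage 2 leaders and laggers, and XAF1 in passage 1 leaders and laggers, IFI44 and XAF1 from parental levels under the filter level. XAF1, a partner of apoptosis inhibitors, was 153 times higher in laggers and 14.8 times without replicate 1. IFI44L and EPSTI1 had at most 21 and 5 counts in any group.

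Lagger replicate 1 carried much of the lagger result, so that comparison was repeated without it. Among the 3 laggers, replicate 1 was highest or tied for 31 members, replicate 2 was highest for 9 and replicate 3 for 9. The 31 include IFI44L, which had 0 counts in all 3 laggers, and the same count over all genes was not made. In lagger replicate 1, 15 of the 49 members were at 1 CPM or more and at more than 2 times each other lagger, where 3.66% of all tested genes were. These were IFIT5, OAS2, MX1, MX2, SAMD9, SAMD9L, IFIH1, UBE2L6, USP18, GBP1, GBP3, TRIM22, PARP9, PARP14 and XAF1. In lagger replicate 2 the same held for IFIT2 and OASL (2.84% of all genes), and in lagger replicate 3 for IFI6 (5.55%). Within laggers the median SD of members on the log2(CPM + 0.5) scale was 0.93, against 0.45 over all genes. In leaders of passages 1 to 4 it was 0.40, 0.35, 0.38 and 0.39, against 0.24, 0.21, 0.32 and 0.25 over all genes. Parental cells went the other way, with 0.28 against 0.32. Lagger replicate 1 had 21117967 gene counts, the most of the 3 laggers, and the lowest sum of leukocyte markers of all 18 libraries, 1.75 CPM.

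Without lagger replicate 1, laggers had 24 members higher than the parental line and 2 lower, where 19.9% and 16.6% of all tested genes were. Of the 29 called higher before, 22 remained, and OAS2, SAMD9, DDX58, DDX60, UBE2L6, TRIM21 and PARP9 did not pass. IFITM1 (0.68, edgeR adjusted p = 0.0415) and IRF9 were added. The median log2 fold change of the members was 1.35 without the library. Leaving it out also changed the other comparisons through the estimate of spread, the genes that passed the filter (16837 without it and 16187 with it) and the adjustment. Without it, 23 members were higher in passage 1 leaders, 24 in passage 2, 19 in passage 3 and 18 in passage 4 leaders than in the parental line, where 24.8%, 16.1%, 14.4% and 15.6% of all genes were, and all those called higher with it remained.

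**Figure D3:**
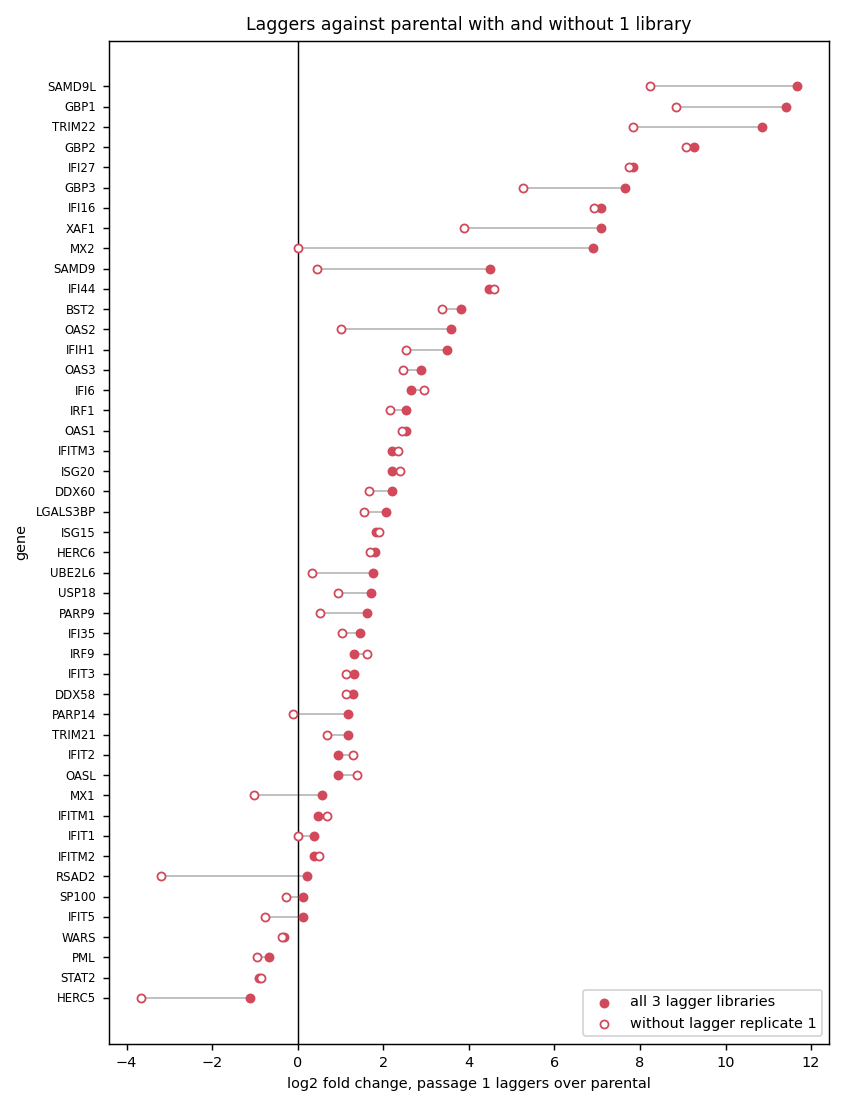
Log2 fold change of passage 1 laggers over the parental line for the 46 tested members, with all 3 lagger libraries (filled) and without lagger replicate 1 (open), joined by a line. OAS2, SAMD9, UBE2L6, PARP9 and PARP14 move close to or towards 0 without the library while ISG15, IFITM3, GBP2 and OAS1 barely move. MX2, SAMD9L, IFI16 and TRIM22 had 0 parental counts, so their places depend on the small count added in the fit and are no measure of fold size, and RSAD2 and HERC5 rest on few lagger counts.

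Leaders and laggers of passage 1 were compared to ask how cells at the front of the nerve differ from those that trail. No member passed the edgeR quasi-likelihood test in either direction, where 0.0618% of all tested genes did, and 15 members (32.6%) had an unadjusted p under 0.05, where 14.4% of all tested genes had. The median log2 fold change of the members was -0.61, against -0.06 over all tested genes, and 37 of 46 (80.4%) were lower in leaders, where 53.7% of all tested genes were. For 9 members all 3 leaders lay below all 3 laggers, where 9.84% of all tested genes had that order. ISG15 averaged 51.5 ± 14.2 CPM in leaders and 198 ± 47.9 CPM in laggers (SD, n = 3 each), a log2 fold change of -1.94 ± 0.41 (edgeR adjusted p = 0.0755). WARS averaged 103 ± 28.5 CPM in leaders and 232 ± 32.4 CPM in laggers (-1.17 ± 0.21, edgeR adjusted p = 0.0571). ISG20 averaged 9.30 ± 2.74 CPM in leaders and 23.8 ± 7.35 CPM in laggers (-1.35 ± 0.32, edgeR adjusted p = 0.0965). DESeq2 called 7 members lower in leaders, namely IFIT2, IFIT3, OAS2, OASL, ISG20, ISG15 and WARS, where it called 1.24% of all genes lower. Without the filter on low counts edgeR called 8 lower, where 0.299% of all genes were, of which IFIT2, IFIT3, OAS2, OASL, ISG15 and WARS are in both lists.

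Without lagger replicate 1 that overall direction was lost. The median log2 fold change of leaders over laggers was 0.11, with 24 of 46 members (52.2%) higher in leaders, where 49.2% of all tested genes were, against 9 with the library. No member was called, where 0.309% of all tested genes were, and 9 members (19.6%) had an unadjusted p under 0.05, where 24% of all genes had. GBP1 was at -2.27 ± 0.83 with it and at 0.34 ± 0.53 without. ISG15, WARS, ISG20 and OASL were at -1.95, -1.08, -1.49 and -2.95 without it, with edgeR adjusted p-values of 0.0705, 0.0617, 0.0617 and 0.094. OASL was at -1.49 without lagger replicate 2, its highest library.

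Passage 4 leaders were set against passage 1 leaders to ask what differed after serial passage. These groups differ in rounds of nerve growth and of in vitro expansion, which cannot be told apart here. Passage 4 had 2 members higher (4.35%) and 6 lower (13%), where 10.8% of all tested genes were higher and 9.17% lower. The share of members lower was near that over all genes, so the calls below are read gene by gene. The median log2 fold change of the members was -0.15 (all genes -0.02). Of the 4 membrane members, 3 were lower at passage 4, and IFITM3 was not called (-0.57, edgeR adjusted p = 0.166). BST2 averaged 51.2 ± 36 CPM at passage 4 and 142 ± 26.5 CPM at passage 1 (-1.48 ± 0.46, edgeR adjusted p = 0.0342), and did not pass without passage 4 replicate 2 or 3 or passage 1 replicate 1 or 3 (edgeR adjusted p = 0.0754 to 0.112). Without passage 4 replicate 1, BST2 was at -2.11. IFITM1 averaged 55.6 ± 7.58 CPM at passage 4 and 123 ± 11.7 CPM at passage 1 (-1.15 ± 0.27, edgeR adjusted p = 0.00867). IFITM2 averaged 45.2 ± 4.88 CPM at passage 4 and 84.8 ± 24.8 CPM at passage 1 (-0.91 ± 0.30, edgeR adjusted p = 0.044), and did not pass without passage 4 replicate 1, 2 or 3 or passage 1 replicate 2 or 3 (edgeR adjusted p = 0.0686 to 0.140).

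The other members that fell between passages 4 and 1 were the synthetase OAS1 (-2.25 ± 0.38, edgeR adjusted p = 0.000903), IFI6 (-2.86 ± 0.53, edgeR adjusted p = 0.00169) and IFI27 (-4.69 ± 1.10, edgeR adjusted p = 0.00747, -3.44 without passage 1 replicate 3 and -5.44 without passage 4 replicate 1). PML rose, averaging 126 ± 23.7 CPM at passage 4 and 30.0 ± 6.23 CPM at passage 1 (2.07 ± 0.25, edgeR adjusted p = 5.55e-05). WARS rose as well, averaging 203 ± 37.8 CPM at passage 4 and 103 ± 28.5 CPM at passage 1 (0.98 ± 0.21, edgeR adjusted p = 0.00465), though at both passages it lay below all parental libraries. The GBP genes were not called, with log2 differences of 0.79 ± 0.80 for GBP1, 0.55 ± 0.42 for GBP2 and 0.88 ± 0.80 for GBP3. Without lagger replicate 1, 7 members were lower at passage 4, where 10.5% of all genes were. Fibroblast markers also summed to less, 235 to 496 CPM at passage 4 and 1009 to 2314 CPM at passage 1, and mitochondrial genes took 1.95% to 3.33% of gene counts at passage 4 and 5.60% to 8.57% at passage 1. Their part in these changes was not tested.

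**Figure D4:**
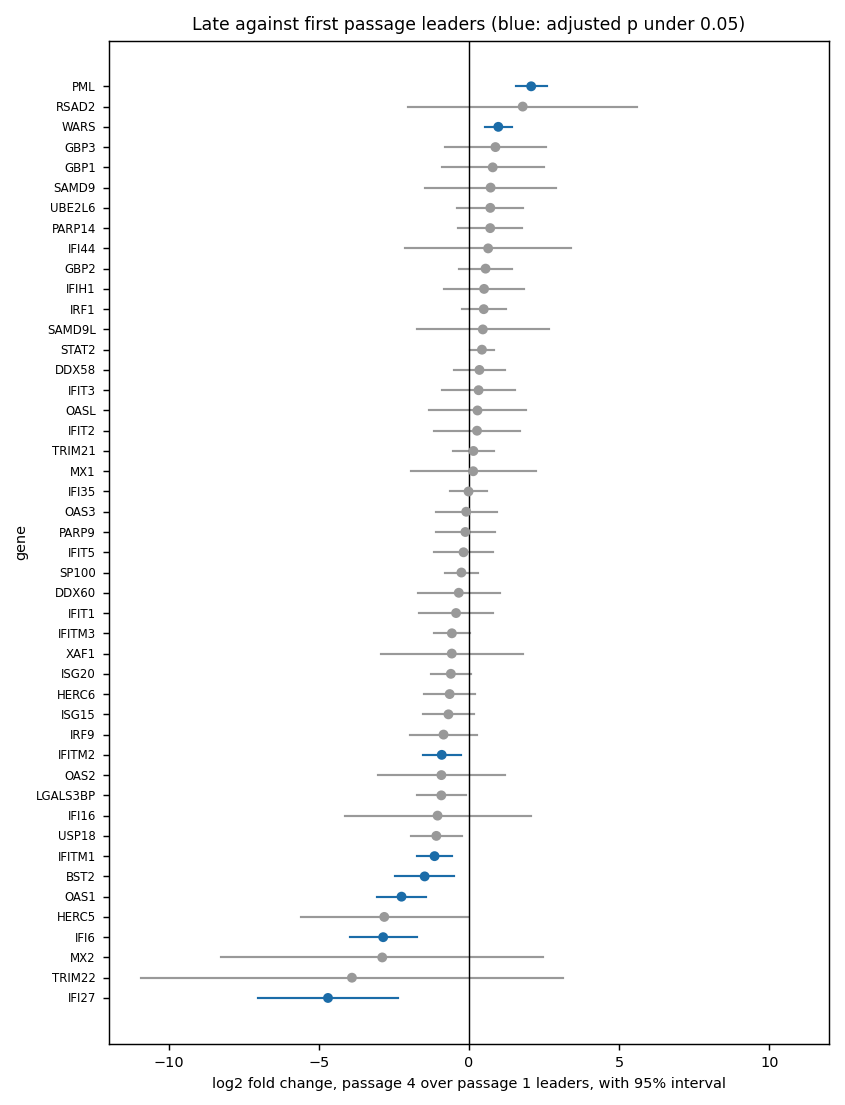
Log2 fold change of passage 4 leaders over passage 1 leaders for the 46 tested members, with 95% intervals from the fit. The 8 called members are blue, 2 to the right of 0 (PML and WARS) and 6 to the left (IFITM2, IFITM1, BST2, OAS1, IFI6 and IFI27), and the widest intervals belong to members with few counts, such as TRIM22 and MX2.

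A few single libraries stood out in the leaders as well. In passage 2 leader replicate 2, 9 members were at 1 CPM or more and at more than 2 times each other library of the group, namely IFIT1, IFIT2, IFIT3, OAS2, OASL, MX1, SAMD9, DDX60 and IFI44, where 1.02% of all tested genes were. In passage 4 leader replicate 1, 7 members were, where 2.3% of all genes were. Passage 2 replicate 2 and lagger replicate 2 were the 2 libraries with the highest OASL (97.1 and 109 CPM) and the highest IFIT2 (54.4 and 84.3 CPM).

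The interferon genes that were read were close to silent. Of the 20 interferon ligand genes read, 17 had 0 counts in all 18 libraries. These were IFNG and all of the type I genes read, IFNB1 among them. IFNA4 was not among those read. The remaining 3 were IFNL1, IFNL2 and IFNL3, the type III or lambda interferons, with 135 counts in all. Passage 2 leader replicate 2 had 32 of these counts and lagger replicate 2 had 39, while the parental libraries had 17, 10 and 6 and lagger replicate 1 had 0. With 3 counts as the limit that a count of 0 allows, an interferon gene at 0 lay under 0.0746 to 0.21 CPM depending on the library. IFNLR1, the lambda receptor subunit, had 35 counts over the 18 libraries and was not tested.

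Other genes of the pathway, from ligands to inhibitors, were read from a list of 52, of which 31 were tested. Of these 31, 9 were higher and 7 lower in passage 1 leaders than in the parental line, 6 higher and 2 lower at passage 2, 6 and 2 at passage 3, 6 and 3 at passage 4, and 9 higher and 4 lower in laggers. In passage 1 leaders that was 29% higher and 22.6% lower, at passages 2 and 3 19.4% and 6.45%, at passage 4 19.4% and 9.68%, and in laggers 29% and 12.9%, shares of higher genes near those over all tested genes given above. None passed between passage 1 leaders and laggers. SOCS1, the feedback inhibitor of JAK kinases that interferon induces, was at 11, 23.8 and 12.9 CPM in passage 1 leaders, 15.7, 12.2 and 13.3 CPM in passage 4 leaders, 12.9, 13.1 and 34.7 CPM in laggers, and 1.79, 1.28 and 1.18 CPM in the parental line. It rose in all 5 comparisons, by 3.48 ± 0.42 in passage 1 leaders, 3.27 ± 0.42 in passage 4 leaders and 3.82 ± 0.43 in laggers (edgeR adjusted p = 1.31e-05, 4.64e-05 and 7.79e-06). IFNGR1, the ligand-binding subunit of the interferon gamma receptor, rose in all 5 as well, by 0.91 to 1.82. The type I receptor genes IFNAR1 and IFNAR2 were called in none.

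The kinases JAK1 and TYK2 fell in passage 1 leaders by 0.58 and 1.11 on the log2 scale (edgeR adjusted p = 0.0309 and 0.00251) and in laggers by 0.77 and 0.84 (edgeR adjusted p = 0.0076 and 0.0163). MAVS, the adaptor of RIG-I and MDA5, fell in all 5 comparisons, by 0.66 to 1.66. DHX58, which encodes the RNA helicase LGP2, rose in leaders of passages 1 to 3 and in laggers, and fell at passage 4 against passage 1 (-1.48 ± 0.43, edgeR adjusted p = 0.0246).

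The calls were also counted by the ISRE core of the promoter window, with no test of the difference. Of the 27 members with a match, 12 were higher in passage 1 leaders and 16 in laggers than in the parental line. Of the 12 members whose window held none, 7 were higher in passage 1 leaders and 9 in laggers. Of the 10 with no window, 2 and 4 were. These totals include members that were not tested, 2 of the 27 and 1 of the 10. Over all tested genes, 23.2% were higher in passage 1 leaders and 21.5% in laggers. Between passage 4 and passage 1 leaders, 4 members with a match were lower and 1 higher, and 1 without a match was lower. Of all tested genes 9.17% were lower there and 10.8% higher. OAS1 and HERC6 had no ISRE core in their windows, and BST2 and IFITM3 each had 2.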

How the data were processed

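RNA sequencing of 18 MiaPaCa-2 libraries in 6 groups of 3 was analysed. Libraries were made from 2 ng of RNA with 12 amplification cycles by a kit that does not mark strand, per the labels. The authors deposited raw read counts per gene in 1 table, and the submitters' processing notes list STAR 2.5.0a, HTSeq 0.5.3, DESeq 1.22.1 and cutadapt 1.6 without saying which step each did. No source used here names the build. The file ends in 5 entries that name no gene, 27.6% to 60.6% of all entries, which were left out of library sizes and tests.

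Genes were kept with edgeR's filterByExpr (0.443 CPM in at least 3 libraries), scaled by TMM and tested in 1 quasi-likelihood fit of all 18 libraries (edgeR 4.0.16, limma 3.58.1, R 4.3.3), with Benjamini-Hochberg adjustment over all 16187 genes in each of 7 comparisons and calls at an adjusted p under 0.05. The test was also run on simulated data with known changes, drawn from the levels and spread of the main fit. Results of that run are not reported here. DESeq2 1.42.0, other size factors, no filter, only the compared groups, a replicate block and leaving out each library were alternatives. Positions came from GENCODE 29 and promoters from RefSeq on GRCh38.p14. A fold against 0 counts was set against 3 counts over the group. Intervals and floors cover counting error only, since reads carried no molecular identifiers.

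The members, role classes, pathway list and tests were chosen with earlier results of these data known. In each class the 2 members with the smallest p over the 6 groups and the 1 with the highest mean were chosen for description. Members called in passage 4 against passage 1 leaders were added, 22 in all. Most are given library by library in all 6 groups. ISG20, DDX58, HERC6 and TRIM22 are given so for the passage 1 and parental groups only. IFITM1 is given by group means, IFITM2 by changes and some means, and DDX60 by changes. Other members are named with their calls. Some genes of the pathway and marker lists are not reported here. Replicate numbers were checked for pairing by the correlation of same-numbered libraries' deviations from their group means. Only laggers and the parental line passed 0.1 in every pair (0.106, 0.127 and 0.401), the labels say nothing of shared origin, and the block gave 31 calls there, as did the fit without it.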

Additional observations from a re-analysis of the deposited data

How the results depend on the processing

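Between passage 1 leaders and laggers, where no member was called, DESeq2 called 7 and edgeR without the filter on low counts called 8, all lower in leaders; the cause was not tested. Leaving out any 1 library left that count at 0 to 0. For the other comparisons leaving out 1 library gave 20 to 26 called members in passage 1 leaders against the parental line, 15 to 26 at passage 2, 14 to 20 at passage 3, 12 to 19 at passage 4, 25 to 32 in laggers, and 6 to 9 between passages 4 and 1. GBP1 in leaders over laggers ran from -2.81 to 0.34 on the log2 scale when 1 library was left out, with the positive value without lagger replicate 1; the cause was not tested beyond that library's own level. Of 85 values of named members, RLE size factors kept all on their side of the threshold. The replicate block called 24, 21, 17 and 15 members in leaders of passages 1 to 4, 31 in laggers and 7 between passages 4 and 1, and ended 1 call of a named member, IFITM2 between passages 4 and 1 (edgeR adjusted p = 0.063); outside laggers and the parental line same-numbered libraries did not correlate above 0.1 in every pair. A fit of only the compared groups ended 5 calls: DDX58, DDX60 and PML in laggers, ISG20 in passage 1 leaders, and BST2 between passages 4 and 1. A count of 0 still allows 0.0746 to 0.21 CPM, so low members such as MX2, RSAD2 and IRF7 are near what this depth can detect.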
